A study of Mus musculus with 6 samples.

Results

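The genes described here encode the subunits of the integrins and the chains of the laminins, as measured in mouse colorectal tumours that had grown in white adipose tissue or in non-adipose tissue. They were taken by symbol, as every integrin alpha gene, numbered integrin beta gene and laminin chain gene that had a probe set annotated to it alone. This gave 36 genes of the 22180 on the arrays, of which 8 were integrin genes typical of leukocytes, 18 were other integrin genes and 10 were laminin genes. The collagen receptor gene Itga10 was not analysed here. The symbol rule itself used no measured value, although the set was picked with earlier results of these data known.

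Integrins are receptors of the cell surface built from 1 alpha and 1 beta subunit. The alpha subunit largely sets which matrix protein is bound, and the beta tail recruits talin and kindlin, which couple the receptor to actin. Laminins are cross-shaped trimers of 1 alpha, 1 beta and 1 gamma chain that form the sheet of the basement membrane together with type IV collagen, nidogen and perlecan. In the intestine they underlie the epithelium and the vessels, and carcinoma cells use integrins to leave that layer and to enter stroma.

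The series set tumours of colorectal cancer cells placed in white adipose tissue, the main fat store, against tumours of such cells placed in a non-adipose site, with 3 mice at each site. Tumours were collected at 1 to 1.5 cm3. Each of the 6 tumours was read on 1 Affymetrix whole-transcript array from total RNA of the whole tumour, so cancer cells, stroma, vessels and leukocytes were measured together, and fewer cells of a type cannot be told apart from less RNA per cell. The cell line, the mouse strain, the age and the position of the non-adipose site are not given in the labels. Values are log2 signals as the authors deposited them, so a difference of 1 is a 2-fold change. Signals of different probe sets cannot be set against each other, and each gene is compared only with itself between tumours.

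The tumours gave clear signals for the simple-epithelium keratins Krt8 and Krt18 (9.46 to 10.04 and 9.14 to 9.85 over the 6 arrays), whereas 7 of 14 intestinal epithelial markers were dim. A gene was called dim where its mean was at or below 5.45, the 95th percentile of 1394 olfactory and vomeronasal receptor genes, which tumours are not known to use. The dim markers were Epcam, Vil1, Cdx1, Cdx2, Cdh17, Krt20 and Tff3. Of 10 fat cell markers measured, 3 were dim, and Adipoq and Lep among them were dim at both sites. The list averaged 5.74 ± 0.29 in white adipose and 5.83 ± 0.18 in non-adipose tumours (SD, n = 3 each). White adipose replicate 1 stood apart. Skin keratinocyte markers averaged 8.13 there, against 5.33 and 5.34 in white adipose replicates 2 and 3 and 5.46, 5.36 and 6.40 in non-adipose replicates 1, 2 and 3. Of 18 such markers, 15 were highest in that array.

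None of the 36 genes differed between the sites past the threshold. Over all 22180 genes, limma called 0 (0% of genes) at a Benjamini-Hochberg adjusted p of 0.05, and the smallest adjusted p among the integrin and laminin genes was 0.936. Their differences ran from -0.22 for Itgam to 0.39 for Itgb8, and 0 of them reached 0.5 in either direction, where 1.56% of all genes did. At an unadjusted p under 0.05 there were 3 of the 36, Itgb8 and Lamc1 with higher means and Itgam with a lower mean in white adipose tumours, where 3.79% of all genes passed. That count was 0 once white adipose replicate 2 was left out, and likewise 0 once non-adipose replicate 1 was. The groups of tumours did not overlap for 4 genes, those 3 and Itga2b, where 7.31% of all genes did not overlap.

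The confidence intervals gave a range for the difference of each gene taken alone. The 95% confidence interval of the log2 difference, not adjusted for the number of genes, lay wholly inside a 2-fold change for 35 of the 36 genes, against 96.6% of all genes, and inside a 1.5-fold change for 29 of them, against 86.1% of all genes. The exception at 2-fold was Itgal, whose interval ran from -0.54 to 1.20. The median difference was 0.017 over the 28 genes other than leukocyte integrins and 0.11 over the 8 leukocyte integrins, beside -0.00043 over all genes. With 1 array left out, the first median ran from -0.022 (white adipose replicate 1 omitted) to 0.056 (white adipose replicate 3 omitted). The median of the leukocyte integrins ran from -0.0077 (non-adipose replicate 2 omitted) to 0.24 (non-adipose replicate 3 omitted).

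**Figure D1:**
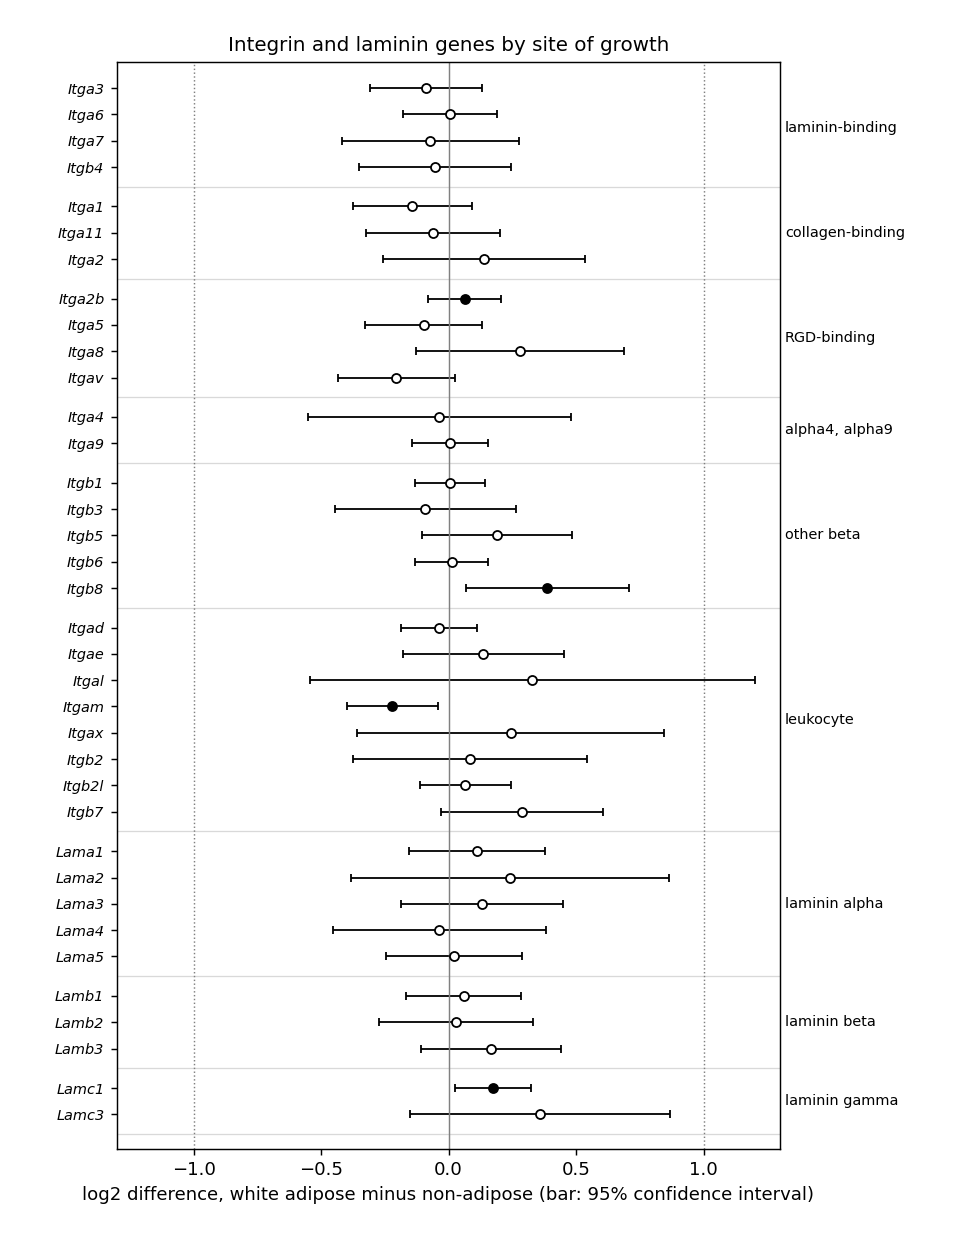
Log2 difference between white adipose and non-adipose tumours (x axis, positive where higher in white adipose tumours) for each of the 36 genes, grouped by role, with limma's 95% confidence interval from 3 tumours per site. Filled points are the 4 genes whose groups of tumours did not overlap; dotted lines mark a 2-fold change, which only the interval of Itgal crosses.

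Itgb8 had the largest difference of the set. It encodes the beta subunit that pairs with the alphaV subunit and, in mice, releases active TGF-beta from its latent complex. Its signal was 9.11, 9.54 and 9.30 in white adipose replicates 1, 2 and 3, against 8.77, 8.997 and 9.02 in non-adipose replicates 1, 2 and 3. Every white adipose tumour was above every non-adipose tumour, and the lowest white adipose value lay 0.089 above the highest non-adipose one. The difference was 0.39 (SE 0.13), a 1.31-fold higher level, with an unadjusted p of 0.0244 and an adjusted p of 0.936 by limma. With 1 array left out it ran from 0.27 to 0.49, the highest without white adipose replicate 1.

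The promoter of Itgb8 is shown because the gene led the set, in the RefSeq window of 250 bases before to 50 bases after its start (GRCm38.p6, chr12:119238227-119238526, minus strand, 60.7% G or C). It was searched on both strands, as were all windows, for the Sp1 GC box GGGCGG, the AP-1 motif TGANTCA, the cyclic AMP response element TGACGTCA, the PU.1 motif GAGGAA and the TATA box TATAAA, and matches are in capitals. None of the 5 motifs was found in this window, so it is in lower case throughout.
Itgb8: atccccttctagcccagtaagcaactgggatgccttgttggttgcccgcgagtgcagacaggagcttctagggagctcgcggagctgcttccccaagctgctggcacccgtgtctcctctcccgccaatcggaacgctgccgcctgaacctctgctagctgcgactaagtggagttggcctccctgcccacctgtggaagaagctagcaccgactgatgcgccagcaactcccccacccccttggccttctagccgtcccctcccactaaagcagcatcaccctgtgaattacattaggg

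The alphaV subunit and its other beta partners gave differences of both signs. Itgav, whose receptors bind vitronectin, fibronectin and latent TGF-beta through the RGD motif, had 10.97, 10.71 and 10.72 in white adipose replicates 1, 2 and 3, against 10.94, 11.10 and 10.98 in the non-adipose tumours. White adipose replicate 1 lay among the non-adipose tumours, and the other two white adipose tumours lay below all of them. The difference was -0.20 (SE 0.095; unadjusted p = 0.0723 by limma), and -0.29 without white adipose replicate 1. A second, much dimmer probe set of Itgav, at a mean of 5.29, differed by -0.014.

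Itgb5, the beta subunit of the vitronectin receptor alphaVbeta5, had 10.64, 11.04 and 10.85 in white adipose tumours, against 10.52, 10.77 and 10.66 in non-adipose tumours. The groups overlapped, again through white adipose replicate 1. The difference was 0.19 (SE 0.12). It was 0.29 without that array, where the groups did not overlap, 0.095 without white adipose replicate 2, and 0.12 when non-adipose replicate 1 was omitted. Itgb3, the partner of alphaV in angiogenic endothelium and of alphaIIb in platelets, differed by -0.090 (SE 0.15). Itgb6, an epithelial activator of latent TGF-beta, was dim at 4.50 to 4.62 over the 6 arrays, and its difference of 0.013 (SE 0.059) turned negative after quantile normalization.

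Itgb1, the common beta subunit that pairs with most of the alpha subunits listed here, was the steadiest gene of the set. Its signal was 11.25, 11.19 and 11.17 in white adipose tumours, against 11.19, 11.22 and 11.19 in non-adipose tumours. All 6 values lay within 0.079 of each other. The difference was 0.0053 (SE 0.056), with a 95% confidence interval of -0.13 to 0.14, and its sign turned after quantile normalization and after subtraction of array medians.

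**Figure D2:**
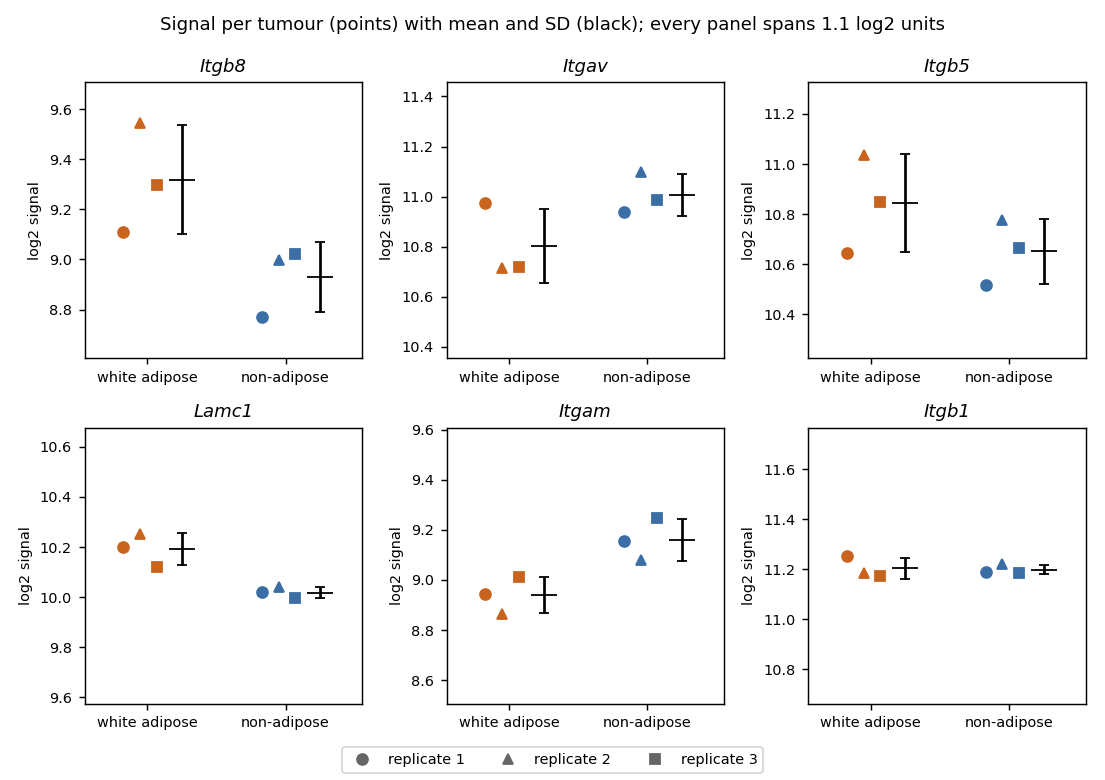
Log2 signal (y axis) of Itgb8, Itgav, Itgb5, Lamc1, Itgam and Itgb1 in each tumour, white adipose left and non-adipose right, with marker shapes for replicates 1 to 3 and the group mean with its SD in black. The groups do not overlap for Itgb8, Lamc1 and Itgam, and overlap for Itgav, Itgb5 and Itgb1.

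The other RGD-binding alpha subunits differed by -0.097 to 0.28. Itga5, the fibronectin receptor, averaged 8.17 ± 0.15 in white adipose and 8.27 ± 0.077 in non-adipose tumours (SD, n = 3 each), a difference of -0.097 (SE 0.094). Itga2b, the platelet alphaIIb subunit, had 5.86, 5.90 and 5.84 in white adipose tumours, against 5.75, 5.83 and 5.83 in non-adipose tumours. The groups did not overlap, but the gap was 0.0062 and the difference 0.063 (SE 0.058). Platelet markers as a list averaged 5.75 ± 0.078 and 5.66 ± 0.055 at the same sites (SD, n = 3 each), with 5 of 6 higher and 1 lower in mean, and their part in the value of Itga2b was not tested. Itga8, the nephronectin receptor of smooth muscle and fibroblasts, had 6.30 in white adipose replicate 1 and 5.48 to 5.81 in all other tumours, so that its difference of 0.28 (SE 0.17) became 0.11 without that array.

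Among the laminin-binding integrins no gene separated the sites. Itga3, whose alpha3beta1 receptor binds laminin-332 and laminin-511, averaged 9.61 ± 0.12 in white adipose and 9.70 ± 0.11 in non-adipose tumours (SD, n = 3 each), a difference of -0.089 (SE 0.090). Itga7, the laminin receptor of muscle fibres, differed by -0.072 (SE 0.14). Skeletal muscle markers had lower means in white adipose tumours for 13 of 14 genes, with array means of 5.43 to 5.56 in white adipose and 5.38 to 6.77 in non-adipose tumours, and their part in the value of Itga7 was not tested.

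Itga6 and Itgb4 together form alpha6beta4, the receptor that anchors epithelial cells to laminin-332 in hemidesmosomes. Itga6 had 7.999, 7.85 and 7.96 in white adipose tumours, against 7.88, 7.88 and 8.03 in non-adipose tumours. Itgb4 had 8.29, 8.11 and 8.004 in white adipose tumours, against 8.11, 8.41 and 8.05 in non-adipose tumours. The groups overlapped for both genes. The differences were 0.0069 (SE 0.076) for Itga6, negative after subtraction of array medians, and -0.053 (SE 0.12) for Itgb4. A further probe set is annotated to Itgb4 together with another gene and was not used.

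The collagen-binding alpha subunits pair with Itgb1. Itga1, which prefers type IV collagen, averaged 6.90 ± 0.13 in white adipose and 7.05 ± 0.11 in non-adipose tumours (SD, n = 3 each), a difference of -0.14 (SE 0.096). That difference ran from -0.22 without white adipose replicate 1 to -0.076 without non-adipose replicate 3, and was -0.090 without white adipose replicate 3. Itga2, a receptor for fibrillar collagen on epithelium and platelets, differed by 0.14 (SE 0.16), with its lowest value of 5.78 in non-adipose replicate 1 and 6.21 to 6.40 in the other arrays. Itga11, the fibroblast receptor for type I collagen, differed by -0.061 (SE 0.11). Itga9, a receptor for tenascin and other ligands, differed by 0.0057 (SE 0.061), with a negative sign after quantile normalization and after subtraction of array medians.

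Lamc1, the gamma chain of nearly all laminins outside laminin-332, was the laminin gene with the smallest p. Its signal was 10.20, 10.25 and 10.12 in white adipose tumours, against 10.02, 10.04 and 9.997 in non-adipose tumours. Every white adipose tumour was above every non-adipose tumour, with a gap of 0.083. The difference was 0.17 (SE 0.061), 1.13-fold higher, with an unadjusted p of 0.0279 and an adjusted p of 0.936 by limma, and it ran from 0.14 to 0.21 with 1 array left out.

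Of the chains that can join Lamc1, Lamb1, Lamb2, Lama4 and Lama5 had smaller differences than Lamc1. Lama2, described below, had a larger difference of 0.24 (SE 0.26). Lamb1, the beta chain of laminin-111, laminin-411 and laminin-511, averaged 9.78 ± 0.15 in white adipose and 9.72 ± 0.072 in non-adipose tumours (SD, n = 3 each), a difference of 0.060 (SE 0.093). Lama5, the alpha chain of laminin-511 under mature epithelium and vessels, differed by 0.022 (SE 0.11), and Lamb2, the beta chain enriched at synapses and in the kidney filter, by 0.030 (SE 0.12). Lama4, the alpha chain of vessel laminin-411, differed by -0.036 (SE 0.17). It was 7.66 in white adipose replicate 1, 7.25 and 6.99 in the other two white adipose tumours and 7.24 to 7.40 in the non-adipose tumours, and the difference became -0.22 without white adipose replicate 1, but 0.12 when white adipose replicate 3 was omitted. Endothelial markers averaged 6.56 ± 0.089 in white adipose and 6.53 ± 0.14 in non-adipose tumours (SD, n = 3 each).

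Several laminin chains were highest in the array with the skin keratinocyte signal. White adipose replicate 1 held the highest value of 8 of the 10 laminin genes, and of 14 of the 28 genes other than leukocyte integrins, where it held the highest value of 18.3% of all genes. Lama2, the alpha chain of muscle and nerve laminin, had 6.89 there, against 5.9985 and 5.92 in white adipose replicates 2 and 3 and 5.9985, 6.05 and 6.04 in the non-adipose tumours. Lamc3, a gamma chain found in skin, brain and retina, had 6.38 there, against 5.598 and 5.70 in white adipose replicates 2 and 3 and 5.61, 5.42 and 5.56 in the non-adipose tumours. For both genes a single tumour stood above the other five.

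The differences of Lama2 and Lamc3 were 0.24 (SE 0.26) and 0.36 (SE 0.21) over all tumours, and -0.068 and 0.11 without that array. Over the laminin genes as a set, 9 of 10 had a higher mean in white adipose tumours with all arrays, where 50.2% of all genes had a lower mean. Without white adipose replicate 1, 5 of 10 laminin genes had a higher mean. The part of skin tissue in these values was not tested. Fibroblast markers were also highest in white adipose replicate 1, at 9.32 against 8.88 to 9.17 in the other arrays, as were pericyte and smooth muscle markers, at 7.74 against 7.19 to 7.55. Schwann cell markers were not, at 5.69 against 5.69 to 5.84.

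The chains of laminin-332, the anchor of the epidermis that invading carcinoma cells often make, gave low signals. Lama3 was dim, with 5.77, 5.37 and 5.30 in white adipose tumours, against 5.31, 5.34 and 5.38 in non-adipose tumours. Lamb3 had 5.71, 5.53 and 5.599 in white adipose tumours, against 5.22, 5.58 and 5.53 in non-adipose tumours. Both were highest in white adipose replicate 1. The differences were 0.13 (SE 0.13) for Lama3, -0.012 without that array, and 0.17 (SE 0.11) for Lamb3, 0.12 without it and 0.056 without non-adipose replicate 1, where Lamb3 was lowest. Col17a1, the hemidesmosome collagen, had 7.10 in the same array, against 5.54 to 5.89 in the other arrays. Lama1, the alpha chain of embryonic laminin-111, was dim at 4.89 to 5.32 and differed by 0.11 (SE 0.11).

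**Figure D3:**
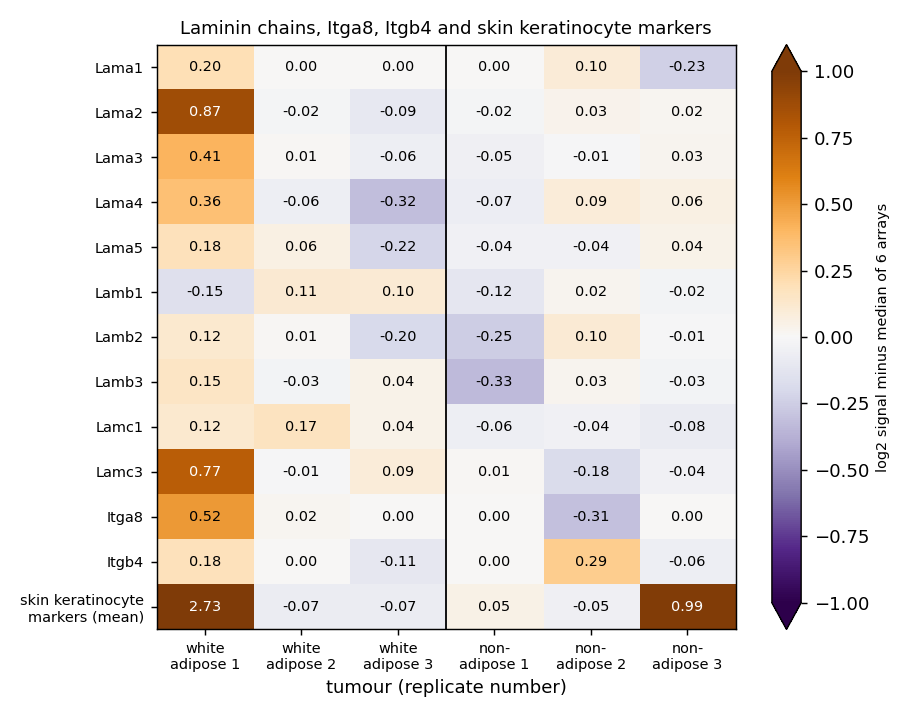
Log2 signal of each laminin gene, Itga8, Itgb4 and the mean of the skin keratinocyte markers in each tumour, as the difference from the median of the 6 arrays (colour and printed value; white adipose tumours left of the line, non-adipose tumours right). White adipose replicate 1 holds the highest value of 8 of the 10 laminin genes and of the skin markers.

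Itgam was the only leukocyte integrin gene at an unadjusted p under 0.05. It encodes CD11b, the alpha subunit that pairs with beta2 on macrophages, neutrophils and natural killer cells. Its signal was 8.94, 8.86 and 9.01 in white adipose tumours, against 9.15, 9.08 and 9.25 in non-adipose tumours. Every white adipose tumour was below every non-adipose tumour, with a gap of 0.070. The difference was -0.22 (SE 0.073), 1.17-fold lower, with an unadjusted p of 0.0226 and an adjusted p of 0.936 by limma, and it ran from -0.26 to -0.18 with 1 array left out. The lists of the cells that carry it gave mixed values: macrophage markers averaged 8.83 ± 0.11 in white adipose and 8.92 ± 0.047 in non-adipose tumours, with 6 of 11 higher and 5 lower in mean, and neutrophil markers 5.16 ± 0.13 and 5.43 ± 0.26 (SD, n = 3 each), with 8 of 11 lower and 8 of 11 dim. Natural killer cell markers averaged 5.19 ± 0.14 and 5.14 ± 0.16 at the same sites (SD, n = 3 each), with 4 of 8 higher and 4 lower, and 6 of 8 dim. The part of these cells in the value of Itgam was not tested.

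The promoter of Itgam is shown in the same RefSeq window (GRCm38.p6, chr7:128062390-128062689, plus strand, 50.3% G or C), because the PU.1 transcription factor is known to act on this myeloid gene. Capitals mark 3 matches to GAGGAA, read as TTCCTC where they lie on the opposite strand, at positions -84, -15 and 33 from the start, and 1 match to GGGCGG, read as CCGCCC, at -47. The matches did not overlap. GAGGAA was present in 28.3% of all 32851 windows and in 15 of the 26 windows found for 23 of the 36 genes, and GGGCGG in 35.7% and in 12 of 26. The AP-1 motif was in 7.81% of all windows, the cyclic AMP response element in 1.79% and the TATA box in 13.6%, and in 3, 0 and 0 of the 26.
Itgam: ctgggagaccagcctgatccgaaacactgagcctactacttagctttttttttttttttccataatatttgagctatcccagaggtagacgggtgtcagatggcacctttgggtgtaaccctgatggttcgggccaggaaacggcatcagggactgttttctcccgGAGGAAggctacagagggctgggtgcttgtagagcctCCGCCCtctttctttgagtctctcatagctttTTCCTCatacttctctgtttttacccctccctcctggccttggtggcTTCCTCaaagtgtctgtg

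The partner and sister genes of Itgam varied between tumours of the same site. Itgb2, the beta subunit of all CD11 integrins, had 8.51, 8.93 and 8.91 in white adipose tumours, against 8.81, 8.35 and 8.94 in non-adipose tumours. Itgal, the CD11a subunit of lymphocytes, had 6.79, 7.72 and 7.65 in white adipose tumours, against 7.21, 6.44 and 7.53 in non-adipose tumours. Itgax, the CD11c subunit of dendritic cells and macrophages, had 7.70, 7.78 and 7.86 in white adipose tumours, against 7.66, 6.98 and 7.98 in non-adipose tumours.

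All 3 genes were lowest in non-adipose replicate 2, and Itgb2 and Itgal were next lowest in white adipose replicate 1. Pan-leukocyte markers were low in the same pair of tumours, at 8.25 in non-adipose replicate 2 and 8.29 in white adipose replicate 1. They were at 8.52 to 8.67 in the other arrays. Dendritic cell markers were also low in that pair, at 5.82 in each, against 5.96 to 6.15 elsewhere. T cell markers were lowest at 5.59 in non-adipose replicate 2 and next lowest at 5.84 in non-adipose replicate 1, with 6.02 in white adipose replicate 1. Macrophage markers were lowest at 8.72 in white adipose replicate 1. In non-adipose replicate 2 they were at 8.90, among the 8.86 to 8.97 of the other arrays. Without non-adipose replicate 2 the difference of Itgal moved to 0.020 from 0.33 (SE 0.36), that of Itgax to -0.037 from 0.24 (SE 0.25) and that of Itgb2 to -0.090 from 0.084 (SE 0.19). With white adipose replicate 1 omitted, the difference of Itgal was 0.63. Itgam, at 9.08 in non-adipose replicate 2, was also lowest there among the non-adipose tumours (9.15 and 9.25 in replicates 1 and 3). It was still above its value in every white adipose tumour. The part of leukocyte content in these values was not tested.

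Itgb7, the beta subunit of the gut-homing receptors, had 6.76, 6.55 and 6.53 in white adipose tumours, against 6.27, 6.13 and 6.57 in non-adipose tumours, and the groups overlapped through non-adipose replicate 3. Its difference was 0.29 (SE 0.13; unadjusted p = 0.0687 by limma). Its alpha partner Itgae, the CD103 subunit that binds E-cadherin, showed a difference of 0.14 (SE 0.13). It was 0.048 when non-adipose replicate 2 was omitted, against 0.27 when non-adipose replicate 3 was. Its other partner Itga4, the VCAM-1 receptor, differed by -0.036 (SE 0.21), the sign turning with array weights. Itgad and Itgb2l, a close relative of Itgb2, were dim at 4.29 to 4.41 and 3.99 to 4.18.

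**Figure D4:**
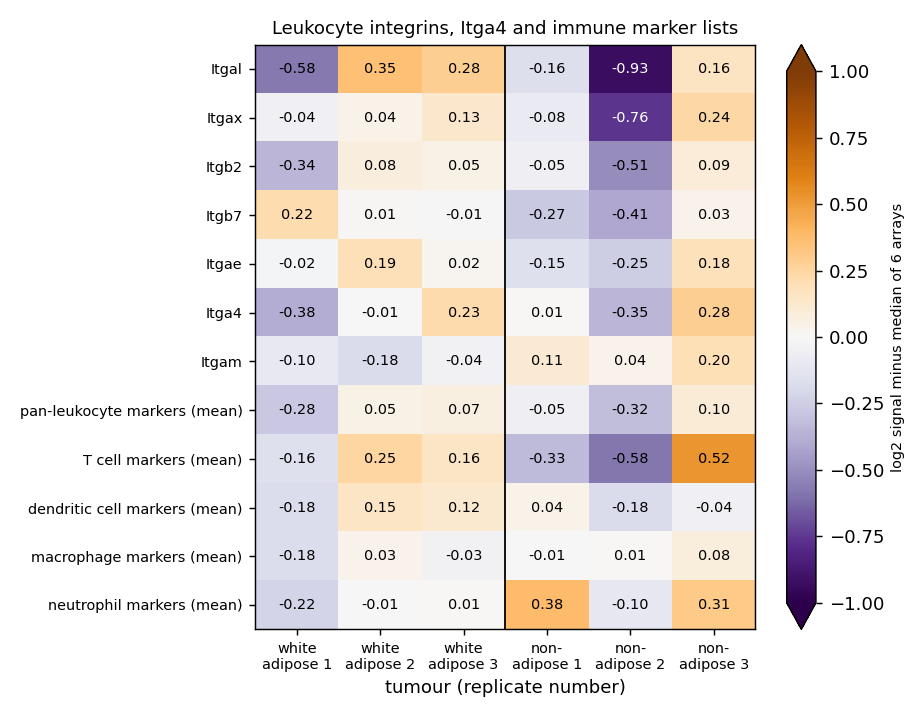
Log2 signal of the leukocyte integrin genes that were not dim, of Itga4 and of 5 immune marker lists (means) in each tumour, as the difference from the median of the 6 arrays (colour and printed value; white adipose tumours left of the line, non-adipose tumours right). Itgal, Itgax and Itgb2 are lowest in non-adipose replicate 2, and Itgam is lower in all 3 white adipose tumours than in any non-adipose tumour.

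The partners of these receptors were read from lists of ligands, basement membrane genes and adhesion signalling genes, in which 0 genes passed the adjusted threshold. Of 20 other basement membrane genes 3 were lower and 0 higher at an unadjusted p under 0.05, where 2.13% of all genes were lower and 1.66% higher. They were Agrn, which encodes the dystroglycan ligand agrin, at -0.36 (SE 0.11), and Col4a1 and Col4a2, the paired genes of type IV collagen that lie head to head, at -0.25 (SE 0.080) and -0.16 (SE 0.060). Col4a1 had 8.27, 8.12 and 8.12 in white adipose tumours, against 8.32, 8.52 and 8.41 in non-adipose tumours. The groups did not overlap for these 3 of the 20 genes, which were picked by p, where 7.31% of all genes did not overlap. The list as a whole was split, with 10 of 20 higher and 10 lower in mean and a median of 0.0092, and Lamc1, whose product lies in the same sheet, differed in the opposite direction.

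Among 11 other laminin receptors, from dystroglycan to the syndecans, 0 were at an unadjusted p under 0.05. Sdc1 (0.15, SE 0.078), the Lutheran glycoprotein gene Bcam (0.27, SE 0.18) and Sdc4 (-0.20, SE 0.14) had the smallest p-values. Of 24 ligands other than laminins, 2 were higher and 1 lower at that level, where 1.66% of all genes were higher and 2.13% lower. Mfge8, an RGD ligand of alphaVbeta3 and alphaVbeta5, differed by 0.26 (SE 0.10), and the red cell adhesion gene Icam4, which was dim, by 0.27 (SE 0.065). Jam3, a junction protein that binds the product of Itgam with beta2, was also dim and differed by -0.21 (SE 0.074).

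Of 31 genes that link integrins to the cytoskeleton, 2 were lower and 0 higher at an unadjusted p under 0.05. Of all genes, 2.13% were lower and 1.66% higher at that level. Apbb1ip, which encodes the Rap1 effector RIAM that activates beta2 integrins in leukocytes, had 7.82, 7.71 and 7.93 in white adipose tumours, against 8.17, 8.11 and 8.09 in non-adipose tumours. The groups did not overlap, as for Itgam and for 7.31% of all genes, and the difference was -0.30 (SE 0.075). Bcar1, the adaptor p130Cas, differed by -0.23 (SE 0.091), and Kank1, a dim talin-binding gene, by 0.35 (SE 0.15). In the hemidesmosome list, which holds Lama3, Lamb3, Itga6 and Itgb4, 0 of 8 genes were at that level, and Lamb3, Plec (-0.12, SE 0.11) and Col17a1 (0.43, SE 0.41) had the smallest p-values.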

How the data were processed

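RNA of whole tumours was made into biotin-labelled cDNA (WT PLUS reagents, per the labels' protocols). The authors deposited log2 signals for 41345 probe sets on 6 arrays. The submitters' processing notes name Affymetrix Expression Console; how it summarised and normalized the probes is not given in the sources used here. Array medians lay between 5.66 and 5.69. Detection calls and dates of scanning were not used here, so array batches were not tested.

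A single gene symbol was annotated to 23521 probe sets, and each gene kept its probe set of highest mean. Every gene entered 1 limma model (version 3.58.1, R 4.3.3; lmFit, then eBayes) of site over all 6 arrays without a block, with Benjamini-Hochberg adjustment over the table. An exact permutation test of 3 against 3 arrays cannot go below 0.1, and the number of arrays limits precision. In 10 simulated tables of 22180 genes the fit called 89.8% of the genes changed 2-fold and 98.8% of those changed 4-fold, and 4.82% of its calls were false. The simulated noise need not match that of these tumours, so these percentages are not the power of this series. In the tumours themselves, 46 genes differed 2-fold or more in mean and 0 were called.

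Genes and lists were chosen with earlier results of these data known. Values in every array were given for members at an unadjusted p under 0.05, those with groups that did not overlap or a difference of 0.5, the laminin-332 and alpha6beta4 genes, Itgb1 and Itgb2, and up to 3 genes of smallest p were named per pathway list. Array values of other genes were added after they were seen. Alternatives were each array left out, the replicate block, quantile or median scaling, other moderation, array weights, probe set averages and a filter on dim genes.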

Additional observations from a re-analysis of the deposited data

How the results depend on the processing

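No alternative called a gene at an adjusted p of 0.05: limma called 0 of 22180 genes in every fit, among them the replicate block, quantile normalization, subtraction of array medians, trend and robust moderation, array weights, and the mean of all probe sets, and 0 of 13306 with dim genes left out. Without white adipose replicate 1, 8.12% of all genes were at an unadjusted p under 0.05, against 2.89% without white adipose replicate 2. The count of integrin and laminin genes at that level, 3 with all arrays, ran from 0 to 4 with 1 array left out. It was 3 with the replicate block (Itgam, Itgb5 and Itgb8), where 4.87% of all genes were at that level. With array weights it was 4, 2 of them lower, where 7.31% of all genes were at that level. The 4 genes whose groups did not overlap became 5 to 13 with 1 array left out. There were 13 without white adipose replicate 1, where 23.8% of all genes did not overlap, and 7 without non-adipose replicate 3, where 18.7% did not. With any other array left out there were 5 or 6, where 14.1% to 15.8% of all genes did not overlap. The block moved no call; deviations of same-numbered tumours correlated at 0.14, 0.064 and 0.064, and 4 of 6 tumours correlated best with their own number.

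Small differences changed sign with 1 array left out, ranging from -0.14 to 0.015 for Itga11, -0.038 to 0.26 for Itga2, -0.20 to 0.13 for Itga4, -0.024 to 0.057 for Itga6, -0.18 to 0.039 for Itga7, -0.031 to 0.031 for Itga9, -0.058 to 0.0035 for Itgad, -0.037 to 0.47 for Itgax, -0.019 to 0.020 for Itgb1, -0.090 to 0.22 for Itgb2, -0.23 to 0.0036 for Itgb3, -0.13 to 0.054 for Itgb4, -0.019 to 0.041 for Itgb6, -0.068 to 0.41 for Lama2, -0.012 to 0.22 for Lama3, -0.22 to 0.12 for Lama4, -0.064 to 0.13 for Lama5 and -0.069 to 0.12 for Lamb2. Among those that kept their sign, the range was -0.16 to -0.033 for Itga3, -0.18 to -0.035 for Itga5, 0.11 to 0.37 for Itga8, 0.020 to 0.63 for Itgal, 0.018 to 0.18 for Lama1, 0.014 to 0.15 for Lamb1 and 0.11 to 0.50 for Lamc3. With array weights the sign turned for Itga4 (0.082), Itga6 (-0.0022), Itga9 (-0.017), Itgb1 (-0.010), Lama5 (-0.039) and Lamb2 (-0.0071). With array medians subtracted it turned for Itga6 (-0.0023), Itga9 (-0.0035) and Itgb1 (-0.0039), and after quantile normalization for Itga9 (-0.020), Itgb1 (-0.0044) and Itgb6 (-0.0032). The cause was not tested. Itgb8, Lamc1 and Itgam kept their direction in all 13 alternatives, as did other members such as Itgb7 and Lamb3. The groups of Itgb8, Lamc1 and Itgam did not overlap, so leaving out 1 array could not turn their sign.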

Other observations

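Exact ties between arrays, to all digits deposited, were common. Of the 36 integrin and laminin genes, 12 had the same value in 2 or more tumours and 4 in 3 or more, against 35.3% and 13.8% of all 22180 genes. Itgad had 1 value in 4 of the 6 tumours, and Itga8, Itgb6 and Lama1 in 3 of them. A tie between the sites was counted as overlap.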
